A study of Mus musculus with 24 samples.

Results

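A set of 33 genes that mark regions of the mouse brain was followed through 24 brain RNA libraries to see which regions the sequenced tissue held and how evenly it was taken. They are 33 of the 52636 gene identifiers in the count tables, matched by symbol through the GRCm38 annotation, and all 33 were found. The list holds 5 genes for cortex, 4 for hippocampus, 7 for striatum, 3 for thalamus, 4 for hypothalamus, 8 for cerebellum and 2 for midbrain dopamine neurons. A filter on low counts kept 29 of them among the 19726 genes tested and removed Oxt, Hcrt, Pmch and Gabra6.

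The study deals with loss of EAAT2, the main glutamate transporter of the forebrain, encoded by Slc1a2, in neurons or in astrocytes. Each of 4 groups held 6 mice. In the neuronal line the Cre-positive group is syn-Cre+ EAAT2−/− and the Cre-negative group syn-Cre− EAAT2+/+, and in the astrocytic line the corresponding groups are gfapCre+ EAAT2Δ/+ and gfap-Cre− EAAT2+/+. Cre is a recombinase, and the line names refer to the synapsin promoter, active in neurons, and the GFAP promoter, active in astrocytes and in some neural progenitors; the labels give no age, sex, Cre strain or dissection beyond "Brain". Between the lines, the Cre driver, the EAAT2 genotype of the Cre-positive mice and any other property of the colonies cannot be told apart.

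Neurons of the forebrain, the diencephalon and the cerebellum switch on different transcription factors as they form, and keep making region-specific receptors and peptides in adult life. In bulk RNA the level of such genes therefore rises with the amount of a region in the dissected piece. Few of these genes belong to only 1 region. Bcl11b, a zinc finger protein of deep-layer corticospinal neurons, is also made in striatal and hippocampal neurons, Neurod1 and Calb1 are made by dentate granule cells as well as by cerebellar neurons, and Zbtb20 is made by astrocytes as well as by hippocampal pyramidal and granule neurons. Fewer cells of a type and less RNA per cell cannot be told apart in these data.

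Gene counts summed to between 41596313 and 69652824 per library, and values in CPM are counts divided by these sums after scaling, in the usual CPM unit. Slc1a2 did not fall beyond the spread between animals in either Cre-positive group: 3012 against 3322 CPM in the syn line (log2 difference -0.14, 95% interval -0.30 to 0.02, edgeR adjusted p = 0.9997) and 3480 against 3518 CPM in the gfap line (-0.02, -0.17 to 0.14, adjusted p = 0.9997). A count over the whole gene does not show which part was deleted, so this value does not check the labels. Reads outside genes took 7.52 to 11.1% of each file in the syn line and 4.47 to 6.37% in the gfap line. The 11.1% was in syn Cre-negative replicate 5, and the next highest share was 8.63%. A list of 7 choroid plexus genes, led by Ttr (transthyretin, a thyroid hormone carrier), summed to between 2129.5 and 5342 CPM in 6 of the 12 syn libraries and to between 70.5 and 181 CPM in the other 6. In the gfap line it ran from 53.0 to 273 CPM. Replicate 5 of the syn Cre-positive group stood apart in the region genes themselves: it was the highest of its group for 13 of the 29 tested genes and the lowest for 7, and results that rest on it are given with and without it. How often it was highest or lowest over all genes was not counted. Its median absolute deviation from the group mean was 0.436 in log2 CPM over the 29 genes and 0.117 over all genes tested. Its choroid plexus sum was 2129.5 CPM.

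Measured as reads per kilobase of exon and per scaled library size (RPKM, computed here from the counts), hippocampal genes had the highest median level and cortical genes the next. The 4 hippocampal genes averaged 7.73 to 41.2 RPKM over the 24 libraries, with a median of 25.3. The 5 cortical genes ran from 1.61 to 19.2 RPKM with a median of 8.78. Striatal genes ran from 0.526 to 16.9 with a median of 1.76, and thalamic genes from 0.548 to 4.68 with a median of 3.56. The 8 cerebellar genes spread the most widely, from 0.0143 to 24.2 RPKM with a median of 1.64. The hypothalamic genes ran from 0.0534 to 0.385 RPKM and the 2 dopamine neuron genes from 0.0592 to 0.247. The order rests on the genes chosen: further genes of the same regions had medians of 6.47 RPKM for cortex, 6.15 for striatum, 3.68 for hippocampus and 2.51 for thalamus. Levels of these genes in pure dissections were not analysed here, so a level is not a share of tissue.

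**Figure D1:**
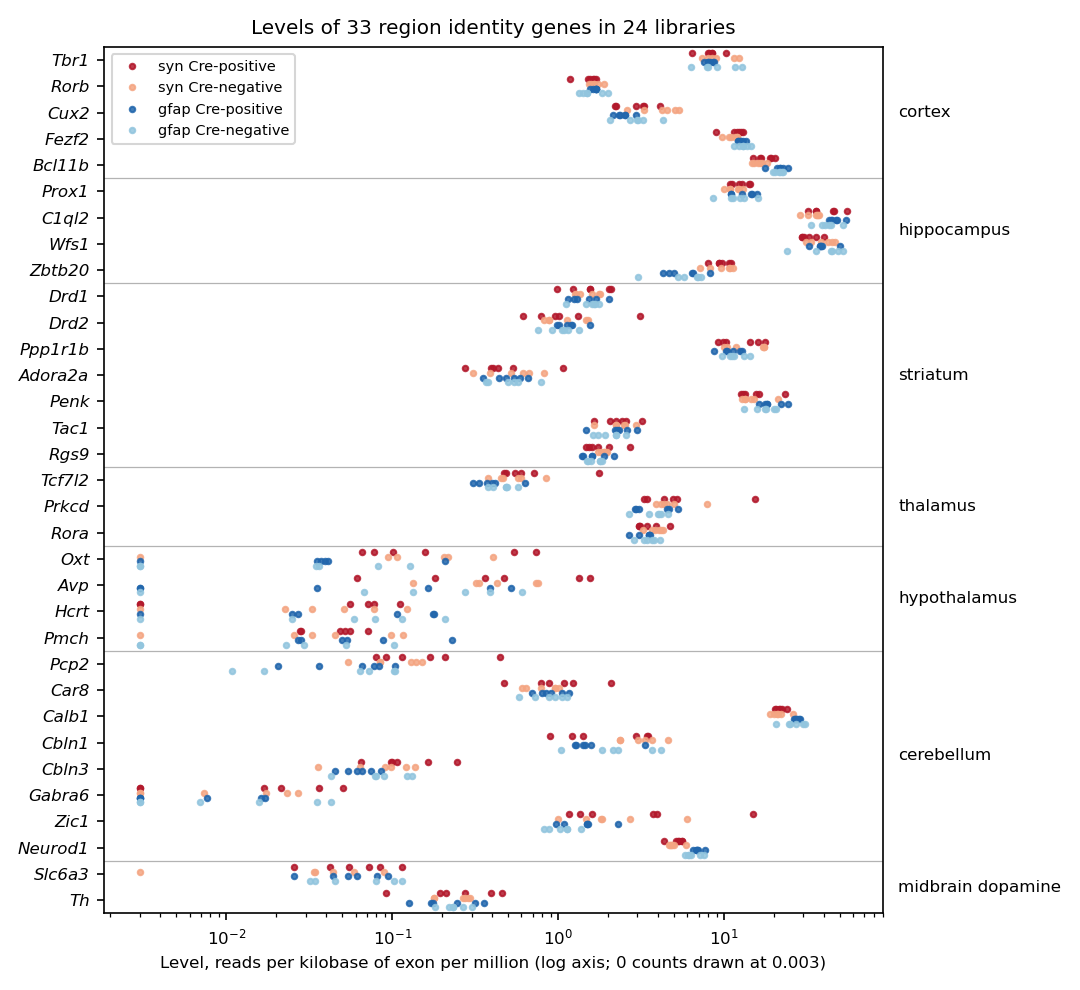
Level of each of the 33 region genes in each of the 24 libraries, in RPKM on a log axis, grouped by region, with libraries at 0 counts drawn at 0.003 and colours for the 4 groups. Hippocampal and cortical genes lie between 1.18 and 55.2, the 4 hypothalamic genes and Pcp2, Cbln3, Gabra6, Slc6a3 and Th lie mostly under 1, and single points of Prkcd, Zic1 and Tcf7l2 stand to the right of the rest.

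Among the hippocampal genes, C1ql2, a synaptic C1q-like protein of dentate granule cells, was the most abundant at 41.2 RPKM, at the 94.5th percentile of the genes tested. Its CPM ran from 64.1 through a median of 81.1 to 110.3 in syn Cre-positive libraries, from 57.6 through 72.3 to 74.4 in syn Cre-negative, from 85.5 through 91.9 to 109 in gfap Cre-positive and from 66.9 through 83.2 to 104 in gfap Cre-negative libraries. The syn Cre-negative values all lay below the gfap Cre-positive ones, and every other pair of groups overlapped. Wfs1, an endoplasmic reticulum protein that marks the CA1 field, averaged 38.2 RPKM, and Prox1, the homeodomain factor that sets dentate granule cell identity, 12.4. Zbtb20, a zinc finger repressor that specifies CA1, averaged 7.73 RPKM over an exon length of 30730 bases, and 8 other annotated genes overlap it, so some of its reads may be assigned otherwise. The overlapping gene with the most counts had 1479, against 294226 for Zbtb20.

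Of 6 further hippocampal genes, all were over 1 RPKM. Fibcd1, a CA1 marker, stood at 39.4 and Rgs14, a signalling regulator of CA2, at 24, while Tdo2, a tryptophan dioxygenase made in the dentate gyrus, was the lowest at 1.6. Markers of the dentate gyrus, CA1 and CA2 were thus all read in the same libraries.

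The cortical genes were led by Bcl11b at 19.2 RPKM and Fezf2, the selector gene of subcerebral layer 5 neurons, at 12.1. Tbr1, the layer 6 factor, averaged 8.78 RPKM, Cux2, of the upper layers, 3.17, and Rorb, of layer 4, 1.61. Rorb ran from 1.18 to 1.99 RPKM over all 24 libraries. Of 8 further cortical genes 7 were over 1 RPKM, with Crym, a thyroid hormone binding protein, at 71.3 and Lamp5, of superficial layers and some interneurons, at 13.5.

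Striatal genes split into high and low levels. Penk, the enkephalin precursor of indirect pathway neurons, and Ppp1r1b, the phosphatase inhibitor DARPP-32, averaged 16.9 and 12.4 RPKM. The dopamine receptors Drd1 (direct pathway) and Drd2 (indirect pathway) averaged 1.53 and 1.16 RPKM, and Adora2a, the adenosine receptor most restricted to the indirect pathway, 0.526. Tac1, the substance P precursor of the direct pathway, and Rgs9, a striatal regulator of receptor signalling, averaged 2.26 and 1.76 RPKM. Penk CPM ran from 20.5 through a median of 23.7 to 38.2 in syn Cre-positive, from 20.9 through 22.9 to 34.3 in syn Cre-negative, from 26.4 through 29.5 to 39.5 in gfap Cre-positive and from 21.5 through 29 to 33.4 in gfap Cre-negative libraries. The 4 groups overlapped, and 1 library in each syn group lay well above the other 5.

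Of the thalamic genes Tcf7l2 was the lowest. Prkcd, a protein kinase C of thalamic relay nuclei, averaged 4.68 RPKM, Rora, an orphan nuclear receptor also made in layer 4 of cortex, 3.56, and Tcf7l2, a Wnt pathway factor of thalamic and habenular neurons, 0.548. Of 8 further thalamic genes 5 were over 1 RPKM, led by Ntng1, a netrin relative, at 5.38, while Gbx2, a factor of the embryonic thalamus, was at 0.0103.

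Cerebellar genes did not share a level. Calb1, a calcium buffer of Purkinje cells, averaged 24.2 RPKM and Neurod1, a granule cell factor, 5.90, and both are made in the dentate gyrus too. Genes with a narrower cerebellar pattern were far lower: Pcp2, of Purkinje cells, averaged 0.104 RPKM, Cbln3, a granule cell cerebellin, 0.0939 and Gabra6, the granule cell GABA-A receptor subunit, 0.0143. Gabra6 was at 0 in 9 of 24 libraries and at 3 counts or fewer in 19, with a highest count of 7. Cbln1, the cerebellin that links parallel fibres to Purkinje cells, averaged 2.42 RPKM, Zic1, a zinc finger factor of granule cells that is also made in the septum and parts of the diencephalon, 2.36, and Car8, a carbonic anhydrase relative of Purkinje cells, 0.927. Pcp2 overlaps Pet100 on the other strand, and Pet100 had 11834 counts against 240 for Pcp2, so Pcp2 reads are uncertain. Zic1 overlaps Zic4 on the other strand, with 3344 counts for Zic4 and 16101 for Zic1. Cbln1 overlaps Gm2694 on the other strand, with 1638 counts for Gm2694 and 9077 for Cbln1. Of 2 genes that overlap Neurod1, the one with more counts had 2086, against 19897 for Neurod1. Of 10 further cerebellar genes 4 were over 1 RPKM and 4 were under 0.1, with Skor2, a Purkinje cell factor, at 0 in all libraries.

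The 4 hypothalamic genes were close to the counting floor. Oxt, the oxytocin precursor, had 91 counts in all 24 libraries together, Hcrt, the orexin precursor, 62 and Pmch, the melanin-concentrating hormone precursor, 50. They were at 0 in 4, 5 and 3 libraries and at 3 counts or fewer in 16, 17 and 20. Pmch overlaps Parpbp on the other strand, which had 415 counts. Avp, the vasopressin precursor, was the most abundant at 0.385 RPKM, with 0 to 43 counts per library. Its CPM ran from 0.0355 through a median of 0.240 to 0.893 in syn Cre-positive, from 0.0772 through 0.219 to 0.433 in syn Cre-negative, from 0 through 0.0575 to 0.300 in gfap Cre-positive and from 0 through 0.117 to 0.351 in gfap Cre-negative libraries. All groups overlapped, and 3 libraries of the gfap line had no Avp count.

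Dopamine neuron genes were also near the floor. Th, tyrosine hydroxylase, averaged 0.247 RPKM. Its CPM ran from 0.217 through a median of 0.576 to 1.09 in syn Cre-positive, from 0.421 through 0.641 to 0.695 in syn Cre-negative, from 0.296 through 0.499 to 0.840 in gfap Cre-positive and from 0.429 through 0.547 to 0.710 in gfap Cre-negative libraries. Slc6a3, the dopamine transporter, averaged 0.0592 RPKM and ran in the same order of groups from 0.0888 through 0.220 to 0.397, from 0 through 0.135 to 0.306, from 0.0878 through 0.199 to 0.324 and from 0.110 through 0.216 to 0.397 CPM. The groups overlapped for both genes. Among 12 hindbrain genes 10 were under 0.1 RPKM and Hoxb3 was at 0, and among 5 pituitary genes 4 were under 0.1.

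The spread of the region genes between mice of the same group was wider than that of most genes. Taken as the standard deviation of log2 CPM around the 4 group means, its median was 0.311 over the 29 tested region genes and 0.183 over all 19726 genes. Compared with genes of similar abundance, 27 of 29 lay above the median spread, and 17 of 29 were above the 90th percentile of dispersion relative to edgeR's abundance trend. The list was chosen with earlier results of these libraries known, so these counts describe the list.

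By this standard deviation cortical genes varied the least, with a median of 0.161. They ran from 0.132 for Fezf2 to 0.324 for Cux2. Hippocampal genes followed at a median of 0.245, from 0.205 for C1ql2 to 0.334 for Zbtb20, and striatal genes at 0.304, from 0.222 for Rgs9 to 0.482 for Drd2. For the 3 thalamic genes the values were 0.194 for Rora, 0.458 for Tcf7l2 and 0.506 for Prkcd. The cerebellar genes ran from 0.123 for Neurod1 to 0.858 for Zic1. Avp had the widest spread at 1.22, and Th and Slc6a3 had 0.507 and 0.762, at counts where sampling adds to the spread. The order of regions above is not adjusted for abundance. Divided by the median spread of genes of similar abundance, hippocampal genes stood at 2.07 to 3.49, striatal at 1.27 to 2.91 and cortical at 1.15 to 2.71. Thalamic genes then stood at 1.82 to 4.25 and cerebellar genes at 0.879 to 4.57, with Pcp2 and Cbln3 at 1.03. Avp, Slc6a3 and Th stood at 1.79, 1.12 and 0.969.

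In all, 5 region genes were above the 90th percentile of all genes by the standard deviation itself: Avp, Zic1, Slc6a3, Pcp2 and Cbln1. Relative to the median of genes of similar abundance, Zic1 and Cbln1 stood at 4.57 and 3.42, and Avp, Slc6a3 and Pcp2 at 1.79, 1.12 and 1.03. Pcp2 and Slc6a3 had at most 46 and 26 counts in a library. The 90th percentile was 0.623. Slc6a3 fell to 0.596 without syn Cre-negative replicate 5 and Cbln1 to 0.595 without gfap Cre-negative replicate 3. Cbln1 ran from 2.72 through a median of 6.6 to 10.5 CPM in syn Cre-positive, from 7.12 through 9.62 to 13.9 in syn Cre-negative, from 3.81 through 4.34 to 10.1 in gfap Cre-positive and from 3.15 through 6.74 to 12.6 in gfap Cre-negative libraries. The groups overlapped, and in the gfap Cre-positive group replicate 3 was at 10.1 CPM with the other 5 between 3.81 and 4.75. Zic1 ran from 6.57 through 15.1 to 85 CPM in syn Cre-positive, from 5.70 through 10.4 to 33.8 in syn Cre-negative, from 5.5 through 8.46 to 13.0 in gfap Cre-positive and from 4.66 through 6.12 to 7.75 in gfap Cre-negative libraries. Its high values came from a few syn libraries, and no gfap library passed 13.0 CPM.

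**Figure D2:**
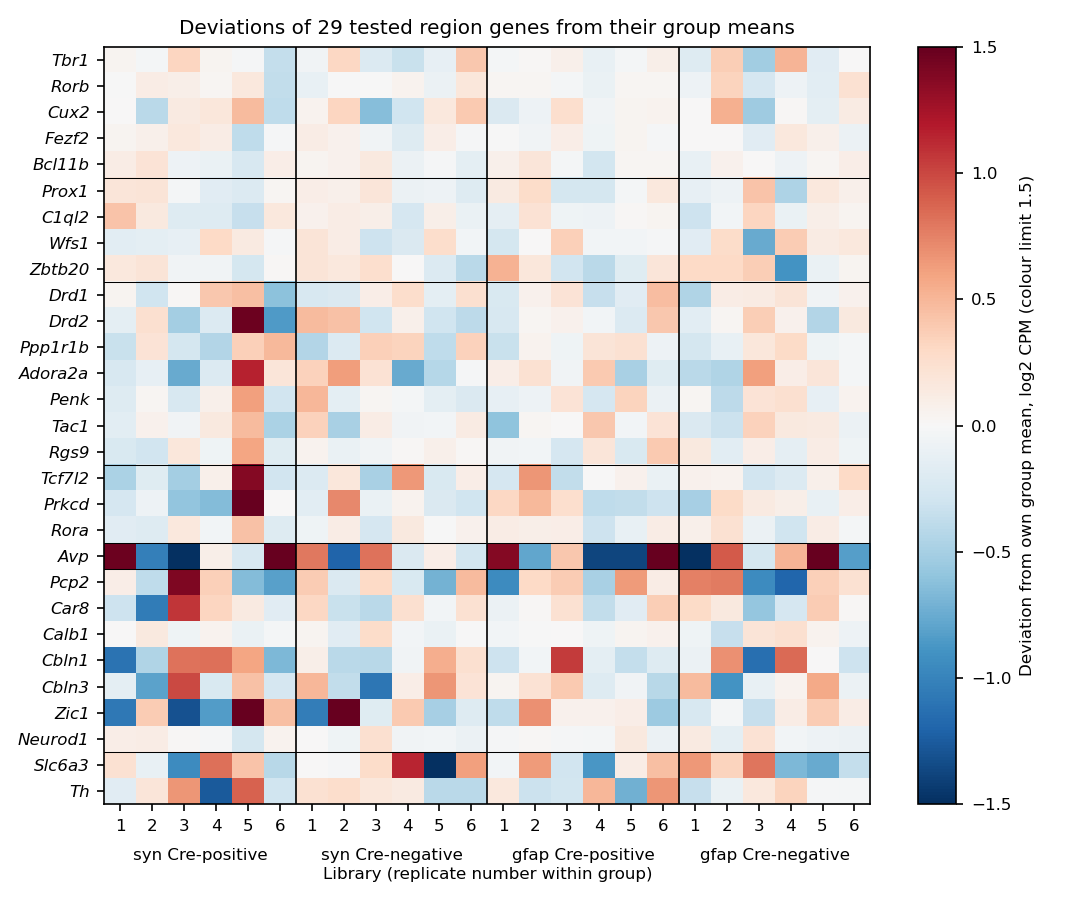
Deviation of each of the 29 tested region genes (rows, by region) in each of the 24 libraries (columns, by group) from the mean of its own group, in log2 CPM, with colours cut at 1.5. In column 5 of the syn Cre-positive group Drd2, Prkcd and Zic1 deviate by 1.47, 1.57 and 2.38, and the cortical and hippocampal rows are paler than the Avp, Zic1 and Slc6a3 rows.

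Replicate 5 of the syn Cre-positive group departed in several genes at once. It held 85 CPM of Zic1 where the other 5 libraries of its group had 6.57 to 22.3, and 84.9 CPM of Prkcd where they had 18.3 to 28.8. Tcf7l2 was at 15.5 CPM against 4.16 to 6.24. Both Zic1 and the thalamic genes Prkcd and Tcf7l2 were thus far above the rest of the group in the same mouse.

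Striatal genes were high in it as well, and 6 of 7, all but Ppp1r1b, had their highest value of the group there. Drd2 stood at 7.92 CPM against 1.56 to 3.36 in the other 5 libraries, Adora2a at 3.25 against 0.835 to 1.64, and Penk at 38.2 against 20.5 to 26.4. Drd1, Tac1 and Rgs9 stood at 7.58, 10.9 and 17.4 CPM. Neurod1, Fezf2, Bcl11b, Prox1, C1ql2, Zbtb20 and Calb1 had their lowest value of the group there, at 11.8, 27.3, 121, 91.5, 64.1, 245 and 97.4 CPM. Lists of other genes showed the same library: 8 thalamic genes summed to 167 CPM with a group median of 109, 11 hypothalamic genes to 12.7 with a median of 7.0, 9 striatal genes to 526 with a median of 444, and 6 hippocampal genes to 285 with a median of 323. The sum of 10 further cerebellar genes was 156 CPM there, with a median of 137. That of 9 further dopamine neuron genes was 86.2 CPM, with a median of 65.3. Both were the highest of the group. Cortical genes went both ways. Rorb and Cux2 had their highest value of the group there, at 18.8 and 41.1 CPM, while 8 further cortical genes summed to 452 CPM, the lowest of the group.

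Other libraries departed in other genes. Replicate 2 of the syn Cre-negative group had 33.8 CPM of Zic1 against 5.70 to 15.5 in the other 5, and 43.9 CPM of Prkcd against 21.6 to 27.6, while its Tcf7l2 lay within the group. Oligodendrocyte genes summed to 7655 CPM in this library and to 4959.8 to 5632 in the other 5, and to 7129 CPM in syn Cre-positive replicate 5 with 5323 to 6072 in the rest of its group. Their part in these values was not tested. Replicate 3 of the syn Cre-positive group had the group's highest Pcp2 (0.817 CPM), Car8 (8.01 CPM) and Cbln3 (1.19 CPM), which are cerebellar genes, and its lowest Zic1. Of the other cerebellar genes, Cbln1, Calb1 and Neurod1 deviated there from the group mean by 0.81, -0.07 and 0.02 in log2 CPM. A list of 10 further cerebellar genes summed to 132 CPM in it, with a group median of 137. In the gfap Cre-negative group, replicate 3 had the highest Prox1 (134 CPM) and the lowest Wfs1 (90 CPM), Tbr1 (34.4 CPM) and Cux2 (20.7 CPM) of the group, and replicate 4 had the lowest Prox1 (72.1 CPM) and Zbtb20 (92.5 CPM) and the highest Wfs1 (198 CPM) and Tbr1 (70.1 CPM). Replicate 4 of the gfap Cre-negative group departed over all genes too. Its median absolute deviation from the group mean was 0.205 in log2 CPM over all genes tested and 0.202 over the region genes. No other library passed 0.131 over all genes. Replicate 4 of the gfap Cre-positive group was the lowest of its group for 13 of 29 genes. Its median absolute deviation was 0.195 over the region genes and 0.130 over all genes.

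**Figure D3:**
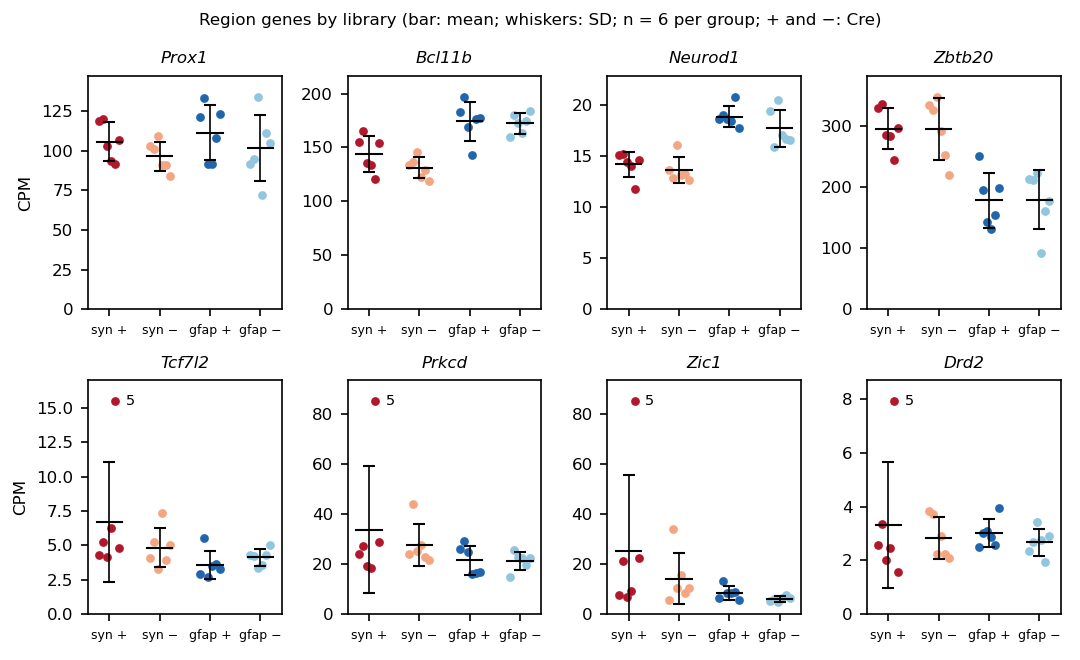
CPM of 8 region genes in each library by line and Cre status, each panel from 0, with the mean and standard deviation of 6 libraries. Replicate 5 of the syn Cre-positive group, marked 5, stands above all other libraries for Tcf7l2, Prkcd, Zic1 and Drd2, and Bcl11b, Neurod1 and Zbtb20 differ between the syn and gfap lines.

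Pairs of region genes were compared to see which rose and fell together between mice of a group. Each value was first set relative to its group mean, and p came from two-sided tests with 100000 permutations of libraries within groups, adjusted by the Benjamini-Hochberg method over the pairs compared. Of 16 pairs chosen by cell type or across regions, 4 passed by Pearson's r. The dentate genes Prox1 and C1ql2 moved together (r = 0.69, permutation p = 3.0e-04, adjusted 0.00480, and rho = 0.75, permutation p = 7.0e-05, adjusted 0.00112). Without the 2 libraries farthest from the median of the first-named gene, here Prox1, r was again 0.69.

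Drd2 and Penk, both of the striatal indirect pathway, had r = 0.64 (permutation p = 0.00645, adjusted 0.0258) and rho = 0.51 (permutation p = 0.0196, adjusted 0.0785), with r = 0.36 without the 2 farthest libraries. Pcp2 and Car8, both of Purkinje cells, had r = 0.61 (permutation p = 0.00568, adjusted 0.0258) and rho = 0.59 (permutation p = 0.00598, adjusted 0.0319), with r = 0.43 without them. Neither passed without those libraries (adjusted permutation p = 0.274 and 0.198). For Drd2 with Penk r was 0.83 in the syn line alone and 0.14 in the gfap line alone. For Pcp2 with Car8 it was 0.61 and 0.69, and neither line alone passed (adjusted permutation p = 0.174 and 0.108). Tcf7l2 and Pmch, a pair across regions, had r = -0.51 (permutation p = 0.00227, adjusted 0.0182) and rho = -0.66 (permutation p = 5.1e-04, adjusted 0.00408), on at most 9 Pmch counts per library. Without the 2 libraries farthest in Tcf7l2 r was -0.59 (adjusted permutation p = 0.0384). The thalamic genes Tcf7l2 and Prkcd had r = 0.63 (permutation p = 0.0452, adjusted 0.0822) and rho = 0.23 (permutation p = 0.308, adjusted 0.373), with r = -0.05 without the 2 farthest libraries.

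All 406 pairs of the 29 tested genes were then compared, a choice made after the data were seen. By Pearson's r 11 passed, 8 positive and 3 negative, and 2 of the 11 joined genes of the same region, of which there were 62 pairs. The genes in most of these pairs were Prox1 and Bcl11b. Pairs of other genes were not tested, so the share that would pass among them is not known. Bcl11b, listed here for cortex, moved with Prox1 (r = 0.71, permutation p = 1.0e-05, the smallest the permutations can give, adjusted 0.00406, and rho = 0.80, permutation p = 2.0e-05, adjusted 0.00812). It also moved with C1ql2 (r = 0.70, permutation p = 7.6e-04, adjusted 0.0361, and rho = 0.75, permutation p = 6.7e-04, adjusted 0.0460) and, by r alone, with Zbtb20 (r = 0.57, permutation p = 8.0e-04, adjusted 0.0361, and rho = 0.58, permutation p = 0.00233, adjusted 0.0946). Prox1 moved with Zbtb20 (r = 0.79, permutation p = 1.5e-04, adjusted 0.0203, and rho = 0.69, permutation p = 6.8e-04, adjusted 0.0460).

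Without the 2 libraries farthest from the median of the first-named gene, r was 0.68 for Bcl11b with Prox1, 0.69 with C1ql2 and 0.49 with Zbtb20, and 0.69 for Prox1 with Zbtb20. Without syn Cre-positive replicate 5, Bcl11b with Prox1 and Prox1 with Zbtb20 still passed (adjusted permutation p = 0.0203 and 0.0359), and Bcl11b with C1ql2 and with Zbtb20 did not (adjusted permutation p = 0.0710 and 0.0887). In each line alone r was 0.93 in the syn and 0.63 in the gfap line for Bcl11b with Prox1, and 0.90 and 0.75 for Prox1 with Zbtb20.

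Cbln1 fell where Prox1 rose (r = -0.72, permutation p = 3.0e-04, adjusted 0.0223, and rho = -0.69, permutation p = 8.1e-04, adjusted 0.0470) and rose with Wfs1 (r = 0.72, permutation p = 1.1e-04, adjusted 0.0203, and rho = 0.69, permutation p = 4.6e-04, adjusted 0.0460). Without the 2 farthest libraries these were r = -0.62 and r = 0.62. Cux2 moved with Wfs1 (r = 0.68, permutation p = 9.3e-04, adjusted 0.0369, and rho = 0.67, permutation p = 9.5e-04, adjusted 0.0482, with r = 0.51 without the 2). By r alone, Cux2 moved against Neurod1 (r = -0.73, permutation p = 2.6e-04, adjusted 0.0223, and rho = -0.63, permutation p = 0.00149, adjusted 0.0672, with r = -0.54 without the 2) and Rora against Calb1 (r = -0.60, permutation p = 1.0e-03, adjusted 0.0369, and rho = -0.57, permutation p = 0.00691, adjusted 0.158, with r = -0.76 without the 2). Without syn Cre-positive replicate 5 both Cbln1 pairs still passed (adjusted permutation p = 0.0359 for each). Cux2 with Wfs1, Cux2 with Neurod1 and Rora with Calb1 did not pass without it (adjusted permutation p = 0.0627, 0.0690 and 0.0887). Their r was then 0.69, -0.68 and -0.62. Mice with more Prox1 than their group thus had less Cbln1, and mice with more Wfs1 had more of it.

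Prkcd and Zic1 had the highest r of the pairs that passed, 0.82 (permutation p = 4.8e-04, adjusted 0.0278), with rho = 0.62 (permutation p = 0.00311, adjusted 0.105). Without syn Cre-positive replicate 5 r was 0.64 (permutation p = 0.00336, adjusted 0.0909), and without the 2 libraries farthest from the median of Prkcd it was 0.48. It was 0.92 in the syn line alone (permutation p = 5.2e-04, adjusted 0.0352) and 0.32 in the gfap line alone (permutation p = 0.394, adjusted 0.837). Without that replicate 6 of 406 pairs passed. In the syn line alone 6 passed and in the gfap line alone 0, each with 12 libraries.

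**Figure D4:**
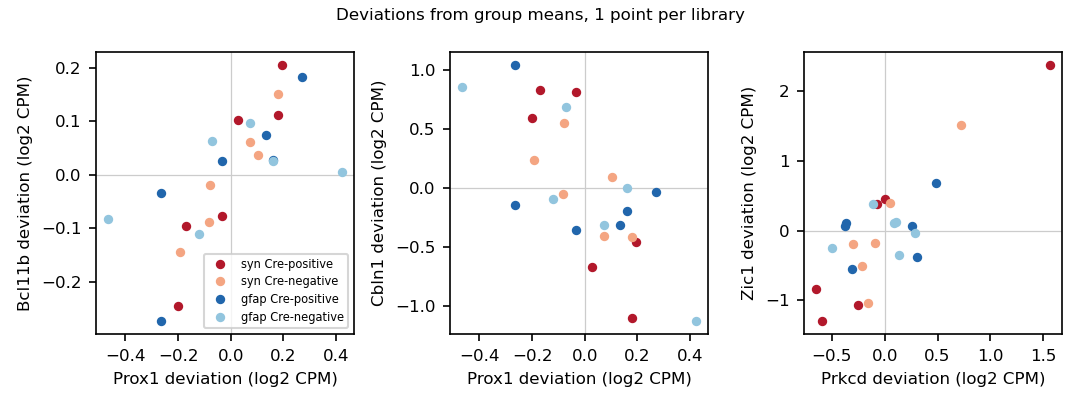
Deviations from group means in log2 CPM for Prox1 and Bcl11b (left), Prox1 and Cbln1 (middle) and Prkcd and Zic1 (right), with 1 point per library and colours for the 4 groups. The left points rise (r = 0.71), the middle points fall (r = -0.72) and in the right panel the topmost point is syn Cre-positive replicate 5, with deviations of 1.57 and 2.38.

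The promoters of the genes that moved together are shown so that their letters near the start site can be compared. RefSeq windows (GRCm38.p6, 250 bases before to 50 after the start, on the gene's strand) were found for 27 of the 33 genes. Where a gene had more than 1 window, as Prox1 and Prkcd had, the one nearest the annotated gene start was taken. The RefSeq start of Prox1 lay 113 bases before the annotated gene start, and its window ended before the gene. That of Bcl11b lay 188 bases inside the gene, as did its marked match. Short motifs, 3 in all, were searched on both strands: CAGATG, an E-box bound by NeuroD factors, AGGTCA, the half-site of ROR receptors, and CTTTGA, the core of TCF factor sites, whose reverse complement can share its first bases with the end of AGGTCA. Capitals mark every match. The dentate genes Prox1 (chr1:190170778-190171077, minus strand) and C1ql2 (chr1:120340332-120340631, plus strand), with Bcl11b (chr12:108003365-108003664, minus strand), read as follows.
Prox1: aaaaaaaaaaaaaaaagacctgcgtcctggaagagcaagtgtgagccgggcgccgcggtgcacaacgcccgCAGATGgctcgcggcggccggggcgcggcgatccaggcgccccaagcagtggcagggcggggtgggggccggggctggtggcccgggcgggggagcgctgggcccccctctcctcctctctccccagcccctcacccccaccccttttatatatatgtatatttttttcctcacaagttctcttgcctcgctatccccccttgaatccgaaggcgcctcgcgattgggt
C1ql2: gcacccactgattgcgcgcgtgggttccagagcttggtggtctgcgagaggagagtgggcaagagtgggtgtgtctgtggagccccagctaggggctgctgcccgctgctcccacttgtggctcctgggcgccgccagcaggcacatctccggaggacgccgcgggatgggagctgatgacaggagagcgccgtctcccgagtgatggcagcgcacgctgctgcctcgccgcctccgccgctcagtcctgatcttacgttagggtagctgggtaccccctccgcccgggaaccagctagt
Bcl11b: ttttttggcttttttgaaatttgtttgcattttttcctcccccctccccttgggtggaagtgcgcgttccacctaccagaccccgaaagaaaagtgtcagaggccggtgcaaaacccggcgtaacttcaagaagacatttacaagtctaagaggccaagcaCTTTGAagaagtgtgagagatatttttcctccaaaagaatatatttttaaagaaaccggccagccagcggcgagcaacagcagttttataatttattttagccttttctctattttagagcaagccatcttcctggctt
The windows of Prkcd (chr14:30626159-30626458, minus strand) and Zic1 (chr9:91365719-91366018, minus strand) read as follows.
Prkcd: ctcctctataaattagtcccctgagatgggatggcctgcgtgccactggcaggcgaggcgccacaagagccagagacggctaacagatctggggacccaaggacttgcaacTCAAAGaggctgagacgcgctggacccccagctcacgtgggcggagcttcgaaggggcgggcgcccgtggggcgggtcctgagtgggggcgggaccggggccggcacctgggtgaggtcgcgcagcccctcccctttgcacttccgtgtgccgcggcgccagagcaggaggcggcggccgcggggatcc
Zic1: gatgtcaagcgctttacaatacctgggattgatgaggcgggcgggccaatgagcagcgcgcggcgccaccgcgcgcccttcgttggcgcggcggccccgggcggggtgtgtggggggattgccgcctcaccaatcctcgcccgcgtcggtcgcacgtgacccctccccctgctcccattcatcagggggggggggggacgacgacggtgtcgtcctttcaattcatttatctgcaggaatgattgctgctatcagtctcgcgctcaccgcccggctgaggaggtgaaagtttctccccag
Prox1 held 1 match to the E-box, Bcl11b and Prkcd each 1 match to the TCF core, and C1ql2 and Zic1 none of the 3. No motif was matched in all 3 genes of the first set or in both of the second. Over all 32851 RefSeq windows the E-box letters occurred in 17.2%, the ROR half-site in 16.3% and the TCF core in 16%, and among the 27 windows of region genes in 6, 2 and 7. A match is a description of the letters only.

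Cre status moved none of the region genes past the test in either line. In the syn line 0 of 29 passed (edgeR, adjusted p at least 0.932), where 0.00507% of all genes tested passed, and 2 had an unadjusted p under 0.05, as had 922 of 19726 genes. They were Cux2, at 30.2 ± 7.13 CPM in Cre-positive and 41.9 ± 10.5 CPM in Cre-negative libraries (SD, n = 6; log2 difference -0.47, 95% interval -0.85 to -0.10, edgeR adjusted p = 0.932), and C1ql2, at 83.2 ± 17.3 against 69.0 ± 6.70 CPM (0.27, 0.04 to 0.50, adjusted p = 0.9997). In the gfap line 0 of 29 passed, where 0.0101% of all genes passed, and 0 of the 29 had an unadjusted p under 0.05, against 590 of 19726 genes. DESeq2 and limma-voom also called 0 region genes in either line.

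The widths of the intervals show what these comparisons could resolve. For Bcl11b the 95% interval was -0.01 to 0.28 in the syn line and -0.13 to 0.16 in the gfap line, while for Zic1 it was -0.25 to 1.95 and -0.67 to 1.63. The median log2 difference of the 29 genes was 0.07 in the syn line and -0.01 in the gfap line, with -0.003 over all genes in both. In the syn line Zic1, Tcf7l2 and Prkcd were at 0.85, 0.47 and 0.29, and at -0.07, 0.04 and -0.23 without syn Cre-positive replicate 5. The difference between the Cre effects of the lines passed for 0 of 29 genes (0.0101% of all genes), with 1, Cbln3, under an unadjusted p of 0.05 (log2 difference of differences 0.99, 0.05 to 1.94, edgeR adjusted p = 0.9996). Groups did not overlap for 0 of 29 genes in either line, against 0.203 and 0.198% of all genes.

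**Figure D5:**
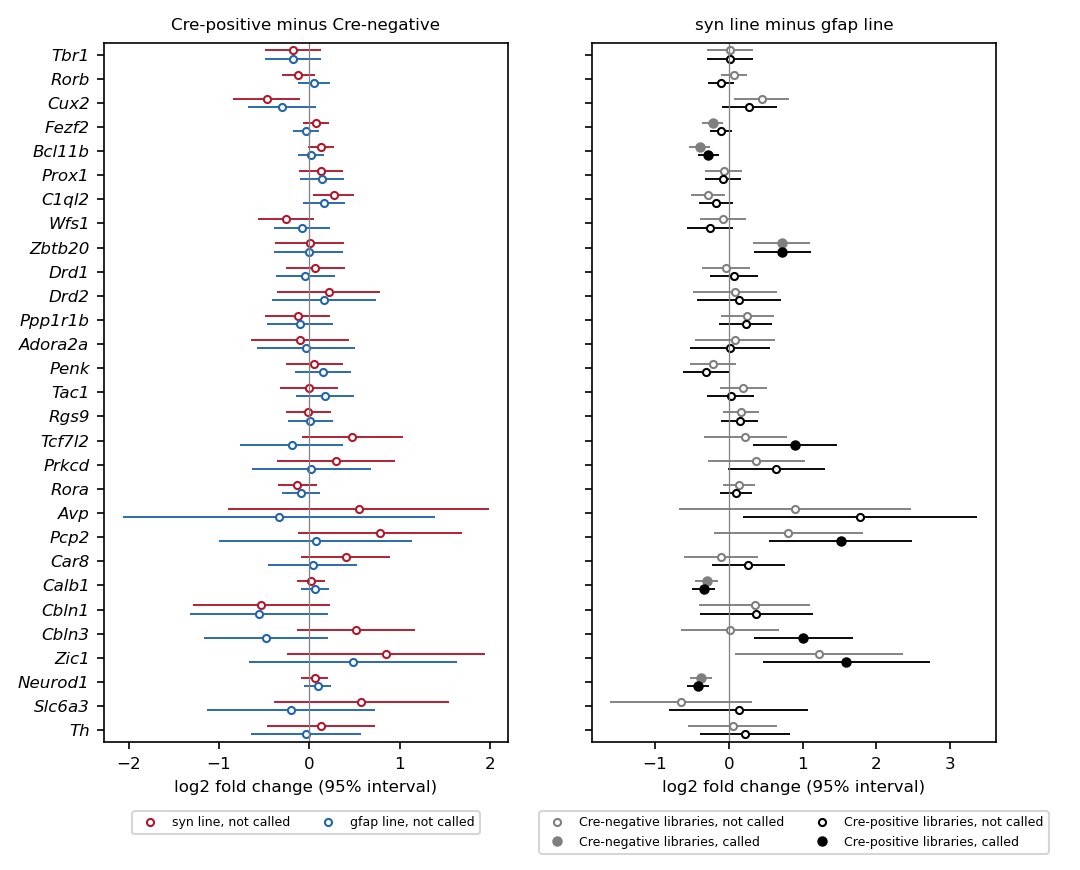
Log2 fold change with its 95% interval for the 29 tested region genes, Cre-positive minus Cre-negative within each line (left) and syn minus gfap line within each Cre status (right), with filled points for an edgeR adjusted p under 0.05. No point on the left is filled, and on the right 5 are filled among Cre-negative and 8 among Cre-positive libraries, with Zbtb20, Bcl11b, Calb1 and Neurod1 filled in both.

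Between the lines some region genes differed, and many other genes did too. Among Cre-negative libraries 5 of 29 passed (17.2%), where 31.2% of all genes passed, with 1 higher in the syn line (14.6% of all genes) and 4 lower (16.6%). Among Cre-positive libraries 8 of 29 passed (27.6%), where 27.5% of all genes passed, with 5 higher (12.8%) and 3 lower (14.7%). The split of calls over all genes moved with the scaling: 46.8% of the Cre-negative calls were higher in the syn line, and 58.5% with upper-quartile factors. Of the Cre-positive calls 46.5% were higher, 58.0% under RLE scaling and 65.5% under upper-quartile scaling. The groups did not overlap for 1 of 29 genes in the first comparison and 2 of 29 in the second, against 11.0 and 13.3% of all genes. Both were passed in the same direction by 4 of 29 genes (13.8%), where 19.9% of all genes passed both, and these comparisons share no library. The syn libraries also differed from the gfap libraries in other cell types: in the Cre-negative comparison all 7 choroid plexus genes and all 5 oligodendrocyte genes were higher in the syn line and 6 of 7 neuron genes lower, and in the Cre-positive comparison 5 of 7, 5 of 5 and 5 of 7. Oligodendrocyte genes summed to 4959.8 to 7655 CPM in the syn line and 3344 to 4935 in the gfap line, neuron genes to 6328 to 7310.5 and 7498 to 8816, and no gene of these 3 lists was under 0.1 RPKM. Their part in the differences of the region genes was not tested.

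Zbtb20 was the only region gene higher in the syn line in both comparisons. Its CPM ran from 220.2 through a median of 309 to 348 in syn Cre-negative and from 92.5 through 194 to 223 in gfap Cre-negative libraries (log2 difference 0.72, 95% interval 0.33 to 1.1, edgeR adjusted p = 0.00616). In the Cre-positive libraries it ran from 245 through 291 to 336 in the syn line and from 131 through 175 to 251 in the gfap line (0.73, 0.34 to 1.11, adjusted p = 0.00667). The groups overlapped at their edges each time. Prox1, which moved with Zbtb20 inside the groups, did not pass between the lines (-0.07, -0.32 to 0.17 in Cre-negative libraries, adjusted p = 0.680).

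Bcl11b, Neurod1 and Calb1 were lower in the syn line in both. Bcl11b ran from 119 through 132 to 146 CPM in syn Cre-negative and from 159.5 through 174 to 184 in gfap Cre-negative libraries, with no overlap (-0.39, -0.54 to -0.25, edgeR adjusted p = 1.7e-04). With Cre it ran from 121 through 145 to 165 and from 143 through 177 to 197 (-0.28, -0.42 to -0.13, adjusted p = 0.00481), and the groups overlapped. Neurod1 ran from 12.7 through 13.2 to 16.1 CPM against 15.9 through 16.9 to 20.5 without Cre, with a narrow overlap (-0.38, -0.53 to -0.23, adjusted p = 3.9e-04), and from 11.8 through 14.5 to 15.2 against 17.7 through 18.6 to 20.8 with Cre, without overlap (-0.41, -0.56 to -0.26, adjusted p = 2.1e-04).

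Calb1 followed them. It ran from 91.4 through 101 to 125 CPM in syn Cre-negative and from 99.4 through 126 to 149.6 in gfap Cre-negative libraries, which overlapped (-0.30, -0.46 to -0.15, edgeR adjusted p = 0.00368), and from 97.4 through 104 to 116 against 127 through 133 to 138 with Cre, without overlap (-0.34, -0.50 to -0.19, adjusted p = 0.00168). Fezf2 was lower in the Cre-negative comparison alone, at 29.6 through 34.5 to 36.6 against 35.1 through 39.7 to 44.2 CPM (-0.22, -0.36 to -0.07, adjusted p = 0.0213). The call was lost in 5 alternatives, among them leaving out syn Cre-negative replicate 4 or gfap Cre-negative replicate 4 or 5 (adjusted p = 0.0589, 0.0770 and 0.0646). With Cre it ran from 27.3 through 37.0 to 39.7 against 36.7 through 38.2 to 41.3 CPM (-0.11, -0.25 to 0.04, adjusted p = 0.279), and the difference between the comparisons did not pass (adjusted p = 0.9996).

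In Cre-positive libraries, 4 further genes were higher in the syn line, and each of these calls was lost when a single library was left out. Zic1, with the values above, differed by 1.59 (0.46 to 2.72, edgeR adjusted p = 0.0340), and by 0.67 without syn Cre-positive replicate 5 (adjusted p = 0.242). It was also lost without gfap Cre-positive replicate 1, 3, 4, 5 or 6, where the difference was 1.51 to 1.61 (adjusted p = 0.0569 to 0.0655), with no filter on low counts (1.58, adjusted p = 0.0575) and by limma-voom with quality weights (0.67, adjusted p = 0.230). Tcf7l2 ran from 4.16 through 5.03 to 15.5 CPM in the syn and from 2.69 through 3.39 to 5.54 in the gfap group (0.90, 0.33 to 1.47, adjusted p = 0.0186), and differed by 0.46 without the same library (adjusted p = 0.0647). Its Cre-negative values were 3.31 through 4.52 to 7.36 and 3.33 through 4.26 to 5.03 CPM (0.23, -0.34 to 0.79, adjusted p = 0.558).

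The other 2 were cerebellar genes at low counts. Pcp2 ran from 0.145 through 0.259 to 0.817 CPM in the syn and from 0.0374 through 0.131 to 0.190 in the gfap Cre-positive group (1.52, 0.55 to 2.49, edgeR adjusted p = 0.0179), with 1.04 without syn Cre-positive replicate 3 (adjusted p = 0.103). Without Cre it ran from 0.0990 through 0.196 to 0.275 and from 0.0197 through 0.124 to 0.189 CPM (0.81, -0.20 to 1.82, adjusted p = 0.215). Cbln3 ran from 0.315 through 0.504 to 1.19 against 0.220 through 0.307 to 0.417 CPM with Cre (1.01, 0.34 to 1.68, adjusted p = 0.0228), with 0.72 without replicate 3 (adjusted p = 0.104) and 0.93 without replicate 5 (adjusted p = 0.0503). Without Cre it ran from 0.173 through 0.459 to 0.668 and from 0.207 through 0.412 to 0.637 CPM (0.01, -0.65 to 0.68, adjusted p = 0.978). For none of the 4 did the difference between the comparisons pass (adjusted p = 0.9996).

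Prkcd did not pass in either comparison. It ran from 18.3 through 25.6 to 84.9 CPM in syn Cre-positive, from 21.6 through 24.4 to 43.9 in syn Cre-negative, from 16 through 20.9 to 29.2 in gfap Cre-positive and from 14.8 through 22.3 to 25.5 in gfap Cre-negative libraries (0.64, -0.01 to 1.30, edgeR adjusted p = 0.137 with Cre and 0.37, -0.28 to 1.03, adjusted p = 0.389 without). None of the 7 striatal genes passed between the lines, with medians of 0.08 without and 0.07 with Cre, nor did Avp, Th or Slc6a3. A few genes crossed the threshold when 1 library was left out. Without syn Cre-positive replicate 5 Penk was lower in the syn Cre-positive group (-0.46, adjusted p = 0.0144 against 0.134 with it). Avp passed without syn Cre-positive replicate 3 (2.02, adjusted p = 0.0488) or gfap Cre-positive replicate 6 (2.40, adjusted p = 0.0417), against 1.78 (0.19 to 3.37, adjusted p = 0.0885) with all. Cux2 in Cre-negative libraries was at 0.45 (0.07 to 0.82, adjusted p = 0.0625), and passed without syn Cre-negative replicate 3 or 4 or gfap Cre-negative replicate 2 (adjusted p = 0.0194, 0.0477 and 0.0182). C1ql2 was at -0.28 (-0.51 to -0.05, adjusted p = 0.0554) there and passed without gfap Cre-negative replicate 1 (-0.34, adjusted p = 0.0215), and in Cre-positive libraries it passed without syn Cre-positive replicate 1 (-0.27, adjusted p = 0.0475).

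Further genes of each region, listed by region with earlier results of these data known, were also tested between the lines. In the Cre-negative comparison, of 6 further hippocampal genes 3 were lower and 0 higher in the syn line (median -0.33), including Rgs14 (86.5 against 116 CPM, -0.42, edgeR adjusted p = 2.3e-05) and Tdo2 (4.41 against 7.27 CPM, -0.72, adjusted p = 5.9e-05). Of 8 cortical genes 3 were lower and 1 higher, although the median was positive at 0.24. Among those lower were Tle4, a layer 6 corepressor (58.3 against 70.1 CPM, -0.27, adjusted p = 4.2e-04), and Etv1, a layer 5 factor (126 against 157 CPM, -0.32, adjusted p = 6.8e-04). Of 9 striatal genes tested 3 were lower, of 8 cerebellar genes 3 were lower, of 7 hypothalamic genes 1 was higher, and of 7 thalamic genes 0 passed. The median over all genes was -0.02, and 16.6% of all genes were lower and 14.6% higher in the syn line. In the Cre-positive comparison the same numbers of genes were tested, and 14.7% of all genes were lower and 12.8% higher. The counts lower and higher were 3 and 0 of 6 for hippocampus, 1 and 0 of 8 for cortex and 1 and 0 of 9 for striatum. They were 1 and 2 of 8 for cerebellum, 0 and 2 of 7 for hypothalamus and 0 and 1 of 7 for thalamus.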

How the data were processed

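RNA from brains of 24 mice, 6 in each of 4 groups, was prepared with a lipid tissue kit and sequenced on an Illumina instrument, per the labels' protocols. The authors deposited whole-number read counts per gene, not normalized. Per the submitters' processing notes, the tools were HISAT2, HTSeq 0.6.0 and DESeq2 1.6.3 and the build mm10; which strand was counted, and against which gene models, is not stated there. Symbols, coordinates and exon lengths come from GENCODE M21 (GRCm38), which named 99.7% of identifiers. The 5 summary lines of each file were left out. Per file, reads outside genes were 4.47 to 11.1%, ambiguous reads 3.19 to 7.46% and reads of low alignment quality 1.54 to 2.21%. Unaligned reads were 1.42 to 4.71% and reads aligned more than once 13.7 to 15.6%. Syn Cre-negative replicate 5 had the highest shares of reads outside genes, ambiguous and unaligned. The next highest were 8.63, 3.92 and 2.25%. It also had the fewest gene counts.

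Groups follow the labels' cell type and genotype; replicate numbers follow accession order, and replicates are mice. Genes were filtered with filterByExpr, given TMM factors and tested with edgeR 4.0.16 in R 4.3.3 by robust quasi-likelihood F tests over 4 groups (20 residual degrees of freedom); Benjamini-Hochberg adjusted p under 0.05 over 19726 genes was called. CPM and RPKM were computed from the deposited counts. Spread is the residual standard deviation of log2 CPM (prior count 2). Scripts were tested on simulated data. No sample was dropped from the main fit. Alternatives were RLE and upper-quartile scaling, no filter or 1 CPM in 6 libraries, DESeq2 1.42.0, limma-voom (limma 3.58.1), each line alone, a prior count of 0.5 and leaving out each library. Values were computed in Python 3 with scipy; counts of 3 or fewer are treated as the floor, which covers counting error only.

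The members, the further gene lists and the tests were chosen with earlier results of these data known. Named genes are all 33 members by region, with values by group for those that passed a test, were above the 90th percentile of spread or led their region, and up to 4 genes of a further list (the 2 highest in level and the 2 smallest p between Cre-negative groups). Prox1, Wfs1, Tbr1, Cux2, Drd2, Adora2a and Car8 were given single-library values after these were seen.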

Additional observations from a re-analysis of the deposited data

Results flagged for a closer look

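Within each group of 6 mice, a library was marked where its gap to the nearest other library was more than 0.625 of the range of the group (Dixon's 95% critical value). Of 116 sets of 1 gene in 1 group, 15 were marked, in 10 genes. For normally distributed values chance marks about 1 set in 20, or 5.8 of 116. The values here were CPM without a log, some at low counts, so 5.8 is not an exact chance level. Genes that move together are also not independent sets.

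Replicate 5 of the syn Cre-positive group accounted for 7 of the 15. It was far above the other 5 libraries for Drd2 (7.92 CPM), Adora2a (3.25 CPM), Penk (38.2 CPM), Tcf7l2 (15.5 CPM), Prkcd (84.9 CPM) and Zic1 (85 CPM), and below them for Neurod1 (11.8 CPM against 14.0 to 15.2). In the same group replicate 6 was low in Rorb (13.0 CPM against 16.8 to 18.8) and replicate 3 high in Pcp2 (0.817 CPM against 0.145 to 0.379).

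In the syn Cre-negative group replicate 2 was high in Prkcd (43.9 CPM) and Zic1 (33.8 CPM), replicate 1 in Penk (34.3 CPM against 20.9 to 24.8) and replicate 3 in Neurod1 (16.1 CPM against 12.7 to 13.6). In the gfap Cre-positive group replicate 2 was high in Tcf7l2 (5.54 CPM against 2.69 to 3.66) and replicate 3 in Cbln1 (10.1 CPM against 3.81 to 4.75). No library of the gfap Cre-negative group was marked.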

How the results depend on the processing

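Region genes called for Cre status stayed at 0 in both lines and for their difference in all alternatives run. Over all genes, the 1 call in the syn line became 5 with no filter, 14 with DESeq2, 8 with limma-voom and 2 with each line fitted alone, and 1 to 3 when a library was left out; leaving out syn Cre-positive replicate 5 gave 3, and leaving out syn Cre-positive replicate 1 or syn Cre-negative replicate 3 or 5 gave 2. Between Cre-negative groups the 5 region genes became 8 with DESeq2, which added Cux2, C1ql2 and Zic1, and 4 to 6 with a library left out; between Cre-positive groups the 8 became 6 to 9. Of 339 refits of the genes called in any setting, 308 kept their side of the threshold, 17 lost it, 14 gained it and none changed sign. The 754 refits of the spreads all stayed within 1.5 times. Of the 16 listed gene pairs 4 passed, with 2 in the syn line alone and 0 in the gfap line alone, where each has 12 libraries; of all 406 pairs 11 passed, with 6 without syn Cre-positive replicate 5, 6 in the syn line alone and 0 in the gfap line alone. The cause of these changes was not tested. Another scaling moved the median of all genes by at most 0.045 on the log2 scale. No paired analysis was possible because replicate numbers follow accession order and pair no mice. Depth limits Oxt, Hcrt, Pmch and Gabra6, which had at most 19 counts in a library.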

Other observations

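Genes of regions not among the 33 were also read. Of 6 olfactory bulb genes 3 were tested: Cdhr1, a cadherin of mitral cells, was lower in the syn than in the gfap Cre-negative group (7.12 against 12.5 CPM, log2 difference -0.81, 95% interval -1.03 to -0.59, edgeR adjusted p = 6.6e-06), while Doc2g, another mitral cell gene, had 1.14 against 0.870 CPM (0.39, -0.02 to 0.81, adjusted p = 0.142). Syn Cre-positive replicate 5 had the highest sum of the 6 genes in its group, 21.5 CPM with a median of 12.4. Hdc, histidine decarboxylase of hypothalamic histamine neurons and of mast cells, was higher in the syn Cre-negative group (2.47 against 1.2 CPM, 1.04, 0.57 to 1.51, adjusted p = 0.00142).

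Of 12 hindbrain genes the 2 tested were Tph2, the tryptophan hydroxylase of serotonin neurons (1.1 against 0.842 CPM, adjusted p = 0.217), and Dbh, dopamine beta-hydroxylase (0.308 against 0.581 CPM, adjusted p = 0.0646), neither of which passed between the Cre-negative groups. Blood genes, led by the globin Hbb-bs, summed to 55.0 to 138 CPM in the syn and 43.0 to 89.2 CPM in the gfap libraries, and Hbb-bs was higher in the syn Cre-negative group (47.8 against 29.9 CPM, 0.68, 0.24 to 1.11, adjusted p = 0.0189).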
